A study of Mus musculus with 12 samples.

Results

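The 45 genes described here encode the proteins that copy DNA in S phase and the regulators that admit a cell to it. Every probe annotated with the symbol of a licensing, helicase, polymerase or G1/S gene of a set list was taken, over all 12 arrays of the series. The list was set with earlier results of these data known. Of the 45 genes, 41 had a probe, with 65 of the 25697 probes of the array between them. A probe was kept when it was above the background of its array on at least 3 arrays, which left 59 of these probes and 38 genes among 12108 units tested, a unit being the brightest kept probe of a gene or a probe with no gene name. Of the 38, 37 were above background on every array and Ccne2 on all but 1, so no gene entered the test through 1 group. Gins1, Gins2, Rfc3 and Cdk4 had no probe under their symbol, and the probes of Orc1, Pola1 and Pole2 were above background on none of the 12 arrays, so these 7 genes have no value below.

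The study asked how the leukaemia fusion RUNX1-ETO and the cytokine GM-CSF each alter gene expression in mouse blood progenitors. Marrow cells of C57Bl/6J mice depleted of lineage-positive cells were cultured with serum, IL-3, SCF and FLT3L, infected for 24 h with a MigR1 retrovirus, and divided between medium with and without 10 ng/mL recombinant mouse GM-CSF for another 24 h. The 4 groups of 3 arrays each were RE+GM (RUNX1-ETO with GM-CSF), RE (RUNX1-ETO without it), Mig+GM (empty vector with GM-CSF) and Mig (empty vector without it). All 4 thus share the culture cytokines, the retroviral infection and the sort for GFP-positive, lineage-negative, c-Kit-positive cells, and the fusion was expressed for 48 h. The fusion, which carries an HA tag, came from a viral vector in otherwise wild-type cells, not from the Runx1 locus. The labels do not say whether replicates came from separate mice, so p-values measure the spread between these arrays, which may be technical. In sorted bulk RNA, fewer cells of a kind and less RNA per cell cannot be told apart.

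DNA replication is prepared in G1, when the origin recognition complex, Cdc6 and Cdt1 load the ring of Mcm2 to Mcm7 onto origins, a step called licensing. At S phase entry Cdc45 and the GINS complex join the ring to form the active helicase, polymerase alpha with its primase starts each strand, and polymerases delta and epsilon, held on DNA by the clamp Pcna, extend it. D and E cyclins with their kinases drive entry by inactivating RB, which frees E2F factors with their partner Tfdp1, and many replication genes are textbook E2F targets. Cytokine-driven progenitors divide fast, and in such cells these genes are among the more strongly expressed.

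Mean signal before normalization was 318 to 597 over the 12 arrays, lowest in RE replicate 1 and highest in Mig replicate 1, and 49.8% to 62.1% of probes were above background. That share was largest in replicate 3 of every group, at 58.6% to 62.1%, against at most 55.8% on the other arrays. Arrays of 1 group correlated across units by 0.972 to 0.994. The tested Runx1t1 probe, which reads the ETO part of the fusion, was above background on 3 of 3 RE+GM and 3 of 3 RE arrays and on 0 of 3 Mig+GM and 0 of 3 Mig arrays. A second, dim Runx1t1 probe was above background on none of the 6 RUNX1-ETO arrays, on 2 of 3 Mig+GM arrays and on 1 of 3 Mig arrays, and was not kept. RE+GM cells exceeded Mig+GM cells by at least 4.58-fold (adjusted p = 2.36e-07), and RE cells exceeded Mig cells by at least 3.36-fold (adjusted p = 1.59e-06). A bound of this kind sets the mean of the brighter group against the background of the dimmer one. Values below are log2 signals after background correction and quantile normalization, unless another scale is named. All adjusted p-values are from limma with Benjamini-Hochberg adjustment over the 12108 units, with 0.05 as the threshold for a call.

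RUNX1-ETO cells had lower signal for nearly the whole replication machinery. In RE+GM against Mig+GM cells, 35 of the 38 tested genes fell, 1 rose (Ccnd2) and 2 were not called (Pcna and Ccnd1), with a median log2 difference of -1.03, against -0.04 over all units. Over all units 23.3% were called lower and 18.8% higher in that comparison. In RE against Mig cells, 33 genes fell, 1 rose (again Ccnd2) and 4 were not called (Orc2, E2f1, Ccnd1 and Cdk2), with a median of -0.84, against -0.04 over all units, of which 20.2% were called lower and 17.6% higher. The genes that fell in both comparisons numbered 32, which is 91.4% of the 35 and 97.0% of the 33.

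The array values separated as the calls did. With GM-CSF, all 3 RE+GM arrays lay below all 3 Mig+GM arrays for 36 of the 38 genes, where 29.6% of all units did so, and above them for 1 gene, where 22.8% of all units did. Without GM-CSF, all 3 RE arrays lay below all 3 Mig arrays for 34 genes and above them for 1, where 24.8% and 21.0% of all units did so. The call came with a fold of at least 2 for 19 genes with GM-CSF and 14 without it, in each case lower, where 5.98% and 3.79% of all units were called lower by that much.

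**Figure D1:**
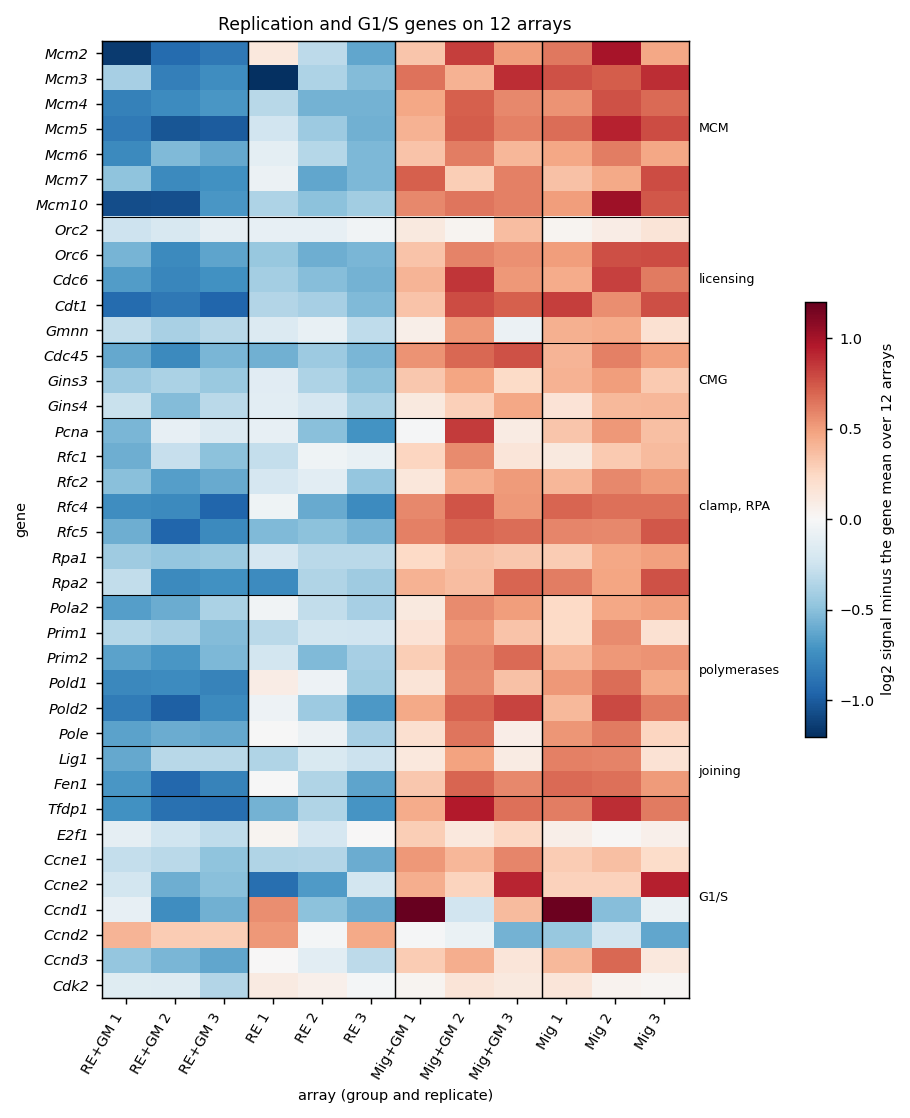
Log2 signal of the 38 tested genes (rows, grouped by role) on the 12 arrays (columns, by group and replicate), each minus the mean of that gene over the 12 arrays (colour, log2 units, with values past the ends of the scale drawn in the end colour). The 6 arrays with RUNX1-ETO are blue in nearly every row and the 6 vector arrays red, while the Ccnd2 row is reversed and the Ccnd1 row follows replicate 1.

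Averaged over the 38 genes, each array gave 1 value that placed the groups in the same way. The mean log2 signal was 8.77 to 8.85 on RE+GM arrays against 9.72 to 9.89 on Mig+GM arrays, and 8.96 to 9.15 on RE arrays against 9.81 to 9.90 on Mig arrays. The 6 RUNX1-ETO arrays thus did not overlap with the 6 vector arrays, and the vector groups overlapped with each other. The order within the RUNX1-ETO groups depended on the scaling: RE+GM arrays lay below RE arrays after quantile normalization and in the authors' normalized values (9.09 to 9.17 against 9.26 to 9.42), but overlapped with them when arrays were scaled to a common median (8.80 to 8.91 against 8.76 to 9.05). The split of all calls in RE against Mig also depended on the scaling: it was 2440 lower and 2128 higher units after quantile normalization, 3457 and 1235 under median scaling, and 2030 and 2211 in the authors' normalized values. Of the 38 replication genes, 35 fell and 0 rose under median scaling, and 33 fell and 1 rose in the authors' values.

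**Figure D2:**
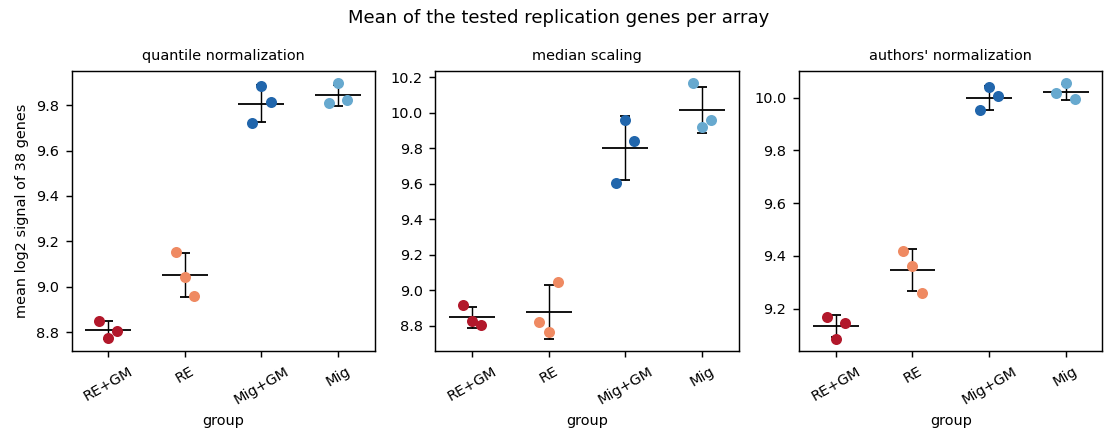
Mean log2 signal of the 38 tested genes on each array (points) under 3 ways of scaling the arrays (panels), with the mean and SD of the 3 arrays of each group (line and bars). RUNX1-ETO arrays lie below vector arrays in each panel, and RE+GM lies below RE in the outer panels but overlaps with it under median scaling.

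The MCM proteins, the ring that unwinds DNA ahead of the fork, were called lower for 7 of 7 genes in both comparisons, counting Mcm10, a separate factor that helps to start the helicase. Their median log2 difference was -1.33 in RE+GM against Mig+GM cells and -1.15 in RE against Mig cells. Mcm5, a ring subunit, had 10.46, 10.28 and 10.31 in RE+GM cells against 11.73, 12.04 and 11.91 in Mig+GM cells, and 11.08, 10.87 and 10.73 in RE cells against 11.98, 12.23 and 12.09 in Mig cells. Every RUNX1-ETO array was below every vector array. Mcm5 was 2.91-fold lower with GM-CSF (log2 difference -1.54 ± 0.12, SE, adjusted p = 1.31e-06) and 2.31-fold lower without it (-1.21 ± 0.12, adjusted p = 1.09e-05).

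Mcm4 had the smallest adjusted p of the ring in both comparisons. It measured 11.29, 11.34 and 11.40 in RE+GM cells against 12.56, 12.81 and 12.67 in Mig+GM cells, and 11.76, 11.53 and 11.53 in RE cells against 12.64, 12.86 and 12.78 in Mig cells. The arrays of a group stayed within a narrow band while the RUNX1-ETO and vector groups stood apart. The fold was 2.52 lower with GM-CSF (-1.33 ± 0.10, adjusted p = 1.2e-06) and 2.22 lower without it (-1.15 ± 0.10, adjusted p = 4.72e-06). The other Mcm4 probes were dimmer and differed less, with log2 differences of -0.45 and -0.47 with GM-CSF that were not called (adjusted p = 0.0722 and 0.0568) and -0.54 and -0.51 without it that were (adjusted p = 0.0393 and 0.0445).

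Mcm2 measured 8.71, 8.94 and 9.0 in RE+GM cells against 10.19, 10.69 and 10.36 in Mig+GM cells, and 9.99, 9.55 and 9.24 in RE cells against 10.49, 10.85 and 10.33 in Mig cells. Its RE arrays spread widely between the other groups but did not reach the Mig arrays. The difference was -1.53 ± 0.20 with GM-CSF (adjusted p = 6.58e-05) and -0.97 ± 0.20 without it (adjusted p = 0.00218). Mcm3 had 8.62, 8.20 and 8.27 in RE+GM cells against 9.67, 9.44 and 9.91 in Mig+GM cells, and 7.54, 8.65 and 8.50 in RE cells against 9.78, 9.75 and 9.91 in Mig cells. RE replicate 1 was far below the other RE arrays, with the smallest mean signal of the 12 arrays, and the other RE arrays were still below every Mig array. Mcm3 differed by -1.31 ± 0.24 with GM-CSF (adjusted p = 0.000903) and by -1.59 ± 0.24 without it (adjusted p = 0.000314).

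Mcm6 had 11.24, 11.47 and 11.39 in RE+GM cells against 12.35, 12.62 and 12.40 in Mig+GM cells, and 11.89, 11.66 and 11.46 in RE cells against 12.47, 12.62 and 12.47 in Mig cells. Groups with and without the fusion again did not overlap. It was 2.12-fold lower with GM-CSF (adjusted p = 1.98e-05) and 1.80-fold lower without it (adjusted p = 0.000179). Of its other 3 probes, 2 were called lower in both comparisons, with log2 differences of -1.31 to -1.03, and 1 was not called (-0.68 with GM-CSF, adjusted p = 0.160, and -0.83 without it, adjusted p = 0.0953).

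Mcm7 measured 7.73, 7.45 and 7.49 in RE+GM cells against 8.93, 8.51 and 8.82 in Mig+GM cells, and 8.14, 7.59 and 7.68 in RE cells against 8.57, 8.67 and 9.0 in Mig cells. All RUNX1-ETO arrays were below all vector arrays, and the fold was 2.29 lower with GM-CSF (adjusted p = 0.000119) and 1.92 lower without it (adjusted p = 0.000870). Mcm10 had 8.85, 8.86 and 9.21 in RE+GM cells against 10.49, 10.55 and 10.52 in Mig+GM cells, and 9.54, 9.42 and 9.49 in RE cells against 10.41, 10.93 and 10.66 in Mig cells. Its differences, -1.55 ± 0.13 with GM-CSF (adjusted p = 3.26e-06) and -1.18 ± 0.13 without it (adjusted p = 3.41e-05), were among the largest of the 38 genes, and its other probe was also called lower in both.

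Promoters of the genes of the set were searched for the core words of the E2F site, TTTCCCGC, TTTCGCGC, TTTGCCGC and TTTGGCGC, on both strands. The windows run from 250 bases before to 50 after the transcription start and were taken from RefSeq on build GRCm38.p6, in which 34 of the 45 genes had 1 or more windows, 42 in all. Rfc5, Orc6, Cdc45 and Mcm5 are shown because, among genes called lower in both comparisons and with a window, they had the smallest adjusted p in RE against Mig cells. Ccnd2 and Mcm4 had no window. Mcm3, Mcm6 and Mcm7 were added after the matches had been seen, as ring subunits that hold E2F words. Mcm2 and Mcm10 also had a window, and it held 0 such words. Each sequence is written 5′ to 3′ on the strand of the gene, with E2F words in capitals, where overlapping words form 1 longer run.
Mcm5 (chr8:75109259-75109558, plus strand): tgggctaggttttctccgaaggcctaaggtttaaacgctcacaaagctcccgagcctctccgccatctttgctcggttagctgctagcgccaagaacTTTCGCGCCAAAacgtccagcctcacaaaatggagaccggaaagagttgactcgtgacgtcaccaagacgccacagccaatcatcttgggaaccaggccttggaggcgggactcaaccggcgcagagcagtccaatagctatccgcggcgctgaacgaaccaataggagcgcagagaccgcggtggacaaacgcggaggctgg
Mcm3 (chr1:20820263-20820562, minus strand): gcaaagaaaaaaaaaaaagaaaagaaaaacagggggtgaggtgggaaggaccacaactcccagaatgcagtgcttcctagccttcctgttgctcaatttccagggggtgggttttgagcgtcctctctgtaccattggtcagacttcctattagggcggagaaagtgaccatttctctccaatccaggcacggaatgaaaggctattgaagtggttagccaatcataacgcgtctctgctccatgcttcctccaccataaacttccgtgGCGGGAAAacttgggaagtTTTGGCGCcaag
Mcm6 (chr1:128359656-128359955, minus strand): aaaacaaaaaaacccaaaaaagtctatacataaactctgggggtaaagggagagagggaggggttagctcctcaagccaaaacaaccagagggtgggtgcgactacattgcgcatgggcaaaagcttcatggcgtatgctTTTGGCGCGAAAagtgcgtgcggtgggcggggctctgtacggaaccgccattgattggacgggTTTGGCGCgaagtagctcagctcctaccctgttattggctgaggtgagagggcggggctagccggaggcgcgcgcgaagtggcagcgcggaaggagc
Mcm7 (chr5:138171834-138172133, minus strand): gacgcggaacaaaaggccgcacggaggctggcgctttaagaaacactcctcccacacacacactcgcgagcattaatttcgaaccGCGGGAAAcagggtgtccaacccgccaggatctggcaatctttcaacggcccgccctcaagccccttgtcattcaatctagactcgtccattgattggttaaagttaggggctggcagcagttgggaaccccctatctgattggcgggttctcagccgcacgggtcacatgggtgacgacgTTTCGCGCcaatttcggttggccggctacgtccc
Orc6 (chr8:85299382-85299681, plus strand): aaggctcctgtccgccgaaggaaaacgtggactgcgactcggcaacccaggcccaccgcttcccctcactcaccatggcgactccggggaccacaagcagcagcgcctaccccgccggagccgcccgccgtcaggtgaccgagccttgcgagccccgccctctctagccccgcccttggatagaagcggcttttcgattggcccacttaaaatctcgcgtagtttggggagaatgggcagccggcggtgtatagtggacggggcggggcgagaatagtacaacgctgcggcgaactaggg
Cdc45 (chr16:18811923-18812222, minus strand): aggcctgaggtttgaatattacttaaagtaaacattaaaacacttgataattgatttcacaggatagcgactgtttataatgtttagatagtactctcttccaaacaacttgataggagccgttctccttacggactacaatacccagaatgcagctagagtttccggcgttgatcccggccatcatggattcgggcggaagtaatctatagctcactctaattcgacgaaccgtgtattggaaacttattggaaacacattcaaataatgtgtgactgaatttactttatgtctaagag
Rfc5 (chr5:117388974-117389273, minus strand): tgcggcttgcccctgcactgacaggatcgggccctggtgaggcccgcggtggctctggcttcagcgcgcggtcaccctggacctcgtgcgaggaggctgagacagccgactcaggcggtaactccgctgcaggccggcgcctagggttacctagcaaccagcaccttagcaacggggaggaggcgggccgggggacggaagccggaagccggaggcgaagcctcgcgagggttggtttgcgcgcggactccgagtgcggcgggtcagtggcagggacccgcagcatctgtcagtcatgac

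Mcm5 held 2 overlapping E2F words at 153 and 149 bases before the start, Mcm6 held 3, of which 2 overlap at 110 and 106 bases before it and 1 lies 47 bases before it. The 2 words of Mcm3 lay 19 and 38 bases after the start. Mcm7 held 1 word 165 bases before the start and 1 word 16 bases after it. Rfc5, Orc6 and Cdc45 held 0 such words in these windows. Whether a window lies at the start used in these cells was not tested. At least 1 word was present in 16 of the 42 windows of the replication genes (38.1%), in 3.38% of the 11593 windows of tested genes and in 2.27% of all 32851 windows. By gene, 15 of 34 held one (44.1%). Among the 25 genes with a window that fell in both comparisons the number was 10 (40.0%), namely Cdc6, Cdt1, Gins3, Lig1, Mcm3, Mcm5, Mcm6, Mcm7, Pold1 and Tfdp1. Of the other 4 tested genes with a window 1 held a word, Cdk2. The word CCAAT, bound by the factor NF-Y, was in 54.8% of the windows of the replication genes and in 37.8% of those of tested genes. The words TTTGAA and TTCGAA, the core of the CHR element of late cell cycle genes, were in 16.7% and 14.7%. A match is a description of these letters, and no binding was measured here.

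Origin recognition and licensing genes were lower for 5 of 5 in RE+GM against Mig+GM cells and for 4 of 5 in RE against Mig cells, with medians of -1.14 and -1.12. Cdt1, which brings the MCM ring to origins, had 9.58, 9.64 and 9.55 in RE+GM cells against 10.84, 11.28 and 11.22 in Mig+GM cells, and 10.15, 10.10 and 9.97 in RE cells against 11.33, 11.06 and 11.27 in Mig cells. The RUNX1-ETO arrays were close together and well below the vector arrays. Cdt1 was 2.88-fold lower with GM-CSF (-1.52 ± 0.12, adjusted p = 1.8e-06) and 2.22-fold lower without it (-1.15 ± 0.12, adjusted p = 2.01e-05).

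Cdc6, the ATPase that loads the ring together with Cdt1, measured 8.27, 8.16 and 8.22 in RE+GM cells against 9.35, 9.80 and 9.46 in Mig+GM cells, and 8.54, 8.43 and 8.38 in RE cells against 9.39, 9.76 and 9.57 in Mig cells. Its groups with and without the fusion did not overlap, and it was 2.50-fold lower with GM-CSF (adjusted p = 6.5e-06) and 2.18-fold lower without it (adjusted p = 3.39e-05). A dim second probe of Cdc6, not above background on any RE+GM or RE array, was not called in either comparison. Orc6, the smallest subunit of the origin recognition complex, had 9.99, 9.79 and 9.92 in RE+GM cells against 10.89, 11.15 and 11.10 in Mig+GM cells, and 10.10, 9.96 and 10.00 in RE cells against 11.05, 11.32 and 11.33 in Mig cells. It was 2.21-fold lower with GM-CSF (adjusted p = 5.21e-06) and 2.32-fold lower without it (adjusted p = 5.17e-06).

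Orc2, another subunit of that complex, and Gmnn, the inhibitor that blocks Cdt1 after S phase has begun, differed less. Orc2 fell by 0.35 on the log2 scale in RE+GM against Mig+GM cells (adjusted p = 0.00917) and differed by -0.18 in RE against Mig cells (95% interval -0.38 to 0.03, adjusted p = 0.174), and its other probe was not called in either. Gmnn, so far as its single probe shows, was 1.43-fold lower with GM-CSF (adjusted p = 0.00917) and 1.45-fold lower without it (adjusted p = 0.00899). The call for Gmnn with GM-CSF did not hold under median scaling (adjusted p = 0.0523), and that without GM-CSF did not hold when Mig replicate 1 and RE replicate 1 were left out together (adjusted p = 0.0520).

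The partners of MCM in the active helicase, Cdc45, Gins3 and Gins4, fell in both comparisons, 3 of 3 each time. Cdc45 had 7.98, 7.83 and 8.04 in RE+GM cells against 9.13, 9.28 and 9.35 in Mig+GM cells, and 8.01, 8.15 and 8.04 in RE cells against 9.0, 9.19 and 9.08 in Mig cells. Both RUNX1-ETO groups were at about the same level, a full log2 unit or more below their vector groups. The fold was 2.47 lower with GM-CSF (-1.31 ± 0.09, adjusted p = 9.12e-07) and 2.04 lower without it (-1.03 ± 0.09, adjusted p = 7.28e-06). The GINS subunits differed less, by -0.76 (Gins3) and -0.66 (Gins4) with GM-CSF and by -0.74 and -0.55 without it.

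The sliding clamp Pcna, the RFC subunits that load it and the RPA proteins that coat single-stranded DNA were called lower for 6 of 7 in RE+GM against Mig+GM cells and for 7 of 7 in RE against Mig cells. Rfc5, a small subunit of the clamp loader, had the smallest adjusted p of the 38 genes in both. It measured 9.17, 8.81 and 8.99 in RE+GM cells against 10.36, 10.46 and 10.43 in Mig+GM cells, and 9.23, 9.27 and 9.20 in RE cells against 10.34, 10.33 and 10.50 in Mig cells. The arrays of each group lay close together, and the gap to the vector arrays was far wider than that spread. Rfc5 was 2.69-fold lower with GM-CSF (-1.43 ± 0.10, adjusted p = 5.92e-07) and 2.23-fold lower without it (-1.16 ± 0.10, adjusted p = 3.95e-06).

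Pcna was the exception with GM-CSF. It had 8.41, 8.86 and 8.80 in RE+GM cells against 8.95, 9.80 and 9.06 in Mig+GM cells, and 8.86, 8.46 and 8.24 in RE cells against 9.29, 9.48 and 9.32 in Mig cells. No RE+GM array reached a Mig+GM array, but the margin was small and 1 Mig+GM array was far above the others. The difference of -0.58 ± 0.22 with GM-CSF missed the threshold (adjusted p = 0.0520) and passed it with the replicate number as a block (adjusted p = 0.0337), while that of -0.84 ± 0.22 without GM-CSF passed it (adjusted p = 0.00958). Rfc4 (-1.44 and -1.14) and Rpa2 (-1.09 and -1.13), in the order with and without GM-CSF, fell more than 2-fold each time, and Rfc2, Rpa1 and Rfc1 fell by less. The call for Rfc1, the large clamp loader subunit, in RE against Mig cells (-0.42 ± 0.13, adjusted p = 0.0229) was lost without RE replicate 1, Mig replicate 2 or Mig replicate 3, with an adjusted p of up to 0.0857 over all alternatives tried.

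Polymerase and primase subunits fell in both comparisons, 6 of 6 each time, with medians of -1.04 in RE+GM against Mig+GM cells and -0.66 in RE against Mig cells. Pold1, the catalytic subunit of polymerase delta, measured 9.55, 9.56 and 9.52 in RE+GM cells against 10.47, 10.89 and 10.67 in Mig+GM cells, and 10.41, 10.26 and 9.90 in RE cells against 10.84, 10.99 and 10.77 in Mig cells. RE+GM arrays were nearly equal and lay below all others, and RE arrays lay between them and the vector arrays. Pold1 was 2.19-fold lower with GM-CSF (-1.13 ± 0.14, adjusted p = 4.09e-05) and 1.59-fold lower without it (-0.67 ± 0.14, adjusted p = 0.00212). The accessory subunit Pold2 fell by 1.52 with GM-CSF and by 1.00 without it on the log2 scale. Pole, the catalytic subunit of polymerase epsilon, fell by 0.93 and by 0.63, Pola2 of polymerase alpha by 0.94 and by 0.65, and the primase subunits Prim1 (0.76 and 0.59) and Prim2 (1.14 and 0.87) fell likewise.

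The enzymes that finish Okazaki fragments were lower as well. Fen1, the flap endonuclease, had 10.26, 10.01 and 10.15 in RE+GM cells against 11.28, 11.65 and 11.53 in Mig+GM cells, and 10.95, 10.59 and 10.32 in RE cells against 11.63, 11.62 and 11.47 in Mig cells. Every RUNX1-ETO array was below every vector array, with a fold of 2.54 with GM-CSF (adjusted p = 2.15e-05) and of 1.94 without it (adjusted p = 0.000371). Lig1, the ligase that seals the nicks, fell by 0.66 with GM-CSF (adjusted p = 0.00259) and by 0.73 without it (adjusted p = 0.00168) on the log2 scale. Of its other 3 probes 2 were called lower in both comparisons and 1 in neither.

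**Figure D3:**
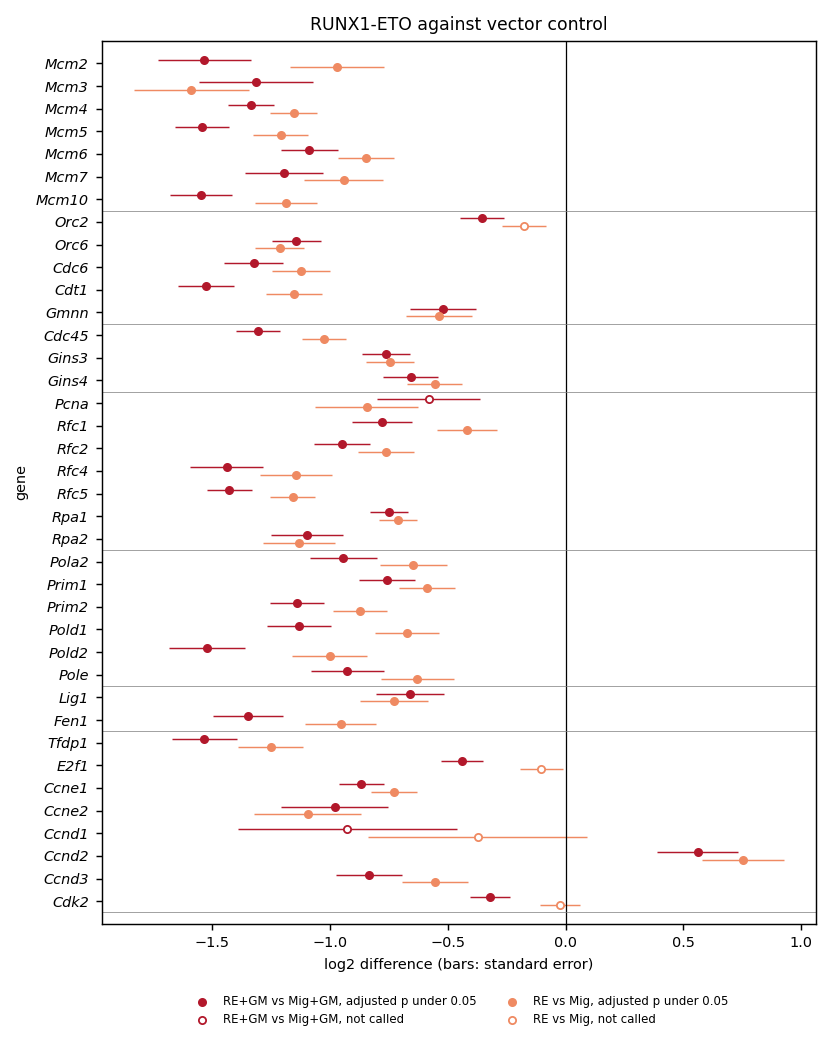
Log2 difference of each tested gene (rows) between RUNX1-ETO and vector cells, with GM-CSF (RE+GM minus Mig+GM, dark red) and without it (RE minus Mig, light red); bars are standard errors and filled points passed an adjusted p of 0.05. Values run from -1.55 to 0.56 with GM-CSF and from -1.59 to 0.75 without it, and Ccnd2 alone lies above 0.

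The regulators of S phase entry did not move as one. Of 8 tested, 6 fell, 1 rose and 1 was not called in RE+GM against Mig+GM cells, and 4 fell, 1 rose and 3 were not called in RE against Mig cells. Tfdp1, the partner that E2F factors need to bind DNA well, had 10.01, 9.84 and 9.83 in RE+GM cells against 11.18, 11.69 and 11.40 in Mig+GM cells, and 10.17, 10.38 and 10.03 in RE cells against 11.35, 11.62 and 11.36 in Mig cells. The gap between RUNX1-ETO and vector arrays was several times the spread within a group, with a fold of 2.89 with GM-CSF (adjusted p = 4.54e-06) and of 2.38 without it (adjusted p = 3.12e-05).

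E2f1 itself differed far less. It measured 9.43, 9.30 and 9.23 in RE+GM cells against 9.83, 9.66 and 9.79 in Mig+GM cells, and 9.57, 9.34 and 9.54 in RE cells against 9.61, 9.55 and 9.60 in Mig cells. The groups separated with GM-CSF and overlapped without it. E2f1 was 1.36-fold lower with GM-CSF (-0.44 ± 0.09, adjusted p = 0.00176), which median scaling left uncalled (adjusted p = 0.0687), and differed by -0.10 ± 0.09 without GM-CSF (95% interval -0.30 to 0.09, adjusted p = 0.423), which became a call under median scaling (-0.53, adjusted p = 0.0215).

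Both E cyclins, which activate Cdk2 at the start of S phase, fell. Ccne1 had 7.25, 7.21 and 7.05 in RE+GM cells against 8.05, 7.93 and 8.12 in Mig+GM cells, and 7.17, 7.18 and 6.94 in RE cells against 7.84, 7.89 and 7.75 in Mig cells. It was 1.82-fold lower with GM-CSF (adjusted p = 2.11e-05) and 1.66-fold lower without it (adjusted p = 0.000113), with no overlap between the groups. Ccne2 had 6.99, 6.62 and 6.71 in RE+GM cells against 7.65, 7.48 and 8.12 in Mig+GM cells, and 6.31, 6.53 and 6.99 in RE cells against 7.49, 7.49 and 8.14 in Mig cells. It varied more within groups and was 1.97-fold lower with GM-CSF (adjusted p = 0.00394) and 2.13-fold lower without it (adjusted p = 0.00243). Their kinase Cdk2 differed by -0.32 ± 0.08 with GM-CSF (adjusted p = 0.00908) and by -0.02 ± 0.08 without it (95% interval -0.21 to 0.16, adjusted p = 0.858). None of the other 3 Cdk2 probes was called, and under median scaling the Cdk2 call with GM-CSF was lost (adjusted p = 0.149) while 1 without GM-CSF appeared (-0.47, adjusted p = 0.0264).

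The D cyclins, which link growth factor signals to the cell cycle, went different ways. Ccnd2 was the only tested gene of the set called higher in RUNX1-ETO cells. It measured 11.20, 11.10 and 11.09 in RE+GM cells against 10.78, 10.71 and 10.22 in Mig+GM cells, and 11.31, 10.77 and 11.25 in RE cells against 10.34, 10.56 and 10.17 in Mig cells. Every RUNX1-ETO array was above every vector array of the matching medium. Ccnd2 was 1.47-fold higher with GM-CSF (0.56 ± 0.17, adjusted p = 0.0203) and 1.69-fold higher without it (0.75 ± 0.17, adjusted p = 0.00457). The first call was lost without RE+GM replicate 1 or Mig+GM replicate 3 (adjusted p of up to 0.0833 over all alternatives tried), and the second under median scaling (0.31, adjusted p = 0.303).

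Ccnd3 had 10.53, 10.45 and 10.37 in RE+GM cells against 11.30, 11.43 and 11.14 in Mig+GM cells, and 11.00, 10.87 and 10.68 in RE cells against 11.39, 11.69 and 11.12 in Mig cells. It was lower on every RUNX1-ETO array, by 1.78-fold with GM-CSF (adjusted p = 0.000452) and 1.47-fold without it (adjusted p = 0.00801). Neither of its other 2 probes was called, with log2 differences of -0.36 and -0.09 with GM-CSF and of -0.68 and -0.25 without it, so the Ccnd3 result rests on the brightest probe.

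Ccnd1 varied more between replicate numbers than between groups. It had 7.26, 6.61 and 6.78 in RE+GM cells against 8.59, 7.12 and 7.73 in Mig+GM cells, and 7.91, 6.86 and 6.75 in RE cells against 8.53, 6.84 and 7.27 in Mig cells. Replicate 1 was the highest array of its group in all 4 groups and for all 3 Ccnd1 probes. The difference of -0.93 ± 0.47 with GM-CSF was not called (95% interval -1.94 to 0.09, adjusted p = 0.139) and was called with the replicate number as a fixed block (adjusted p = 0.00144) but not as a random one. Without GM-CSF the difference was -0.37 ± 0.47 (adjusted p = 0.588, and 0.125 with the block). E2f1 was likewise highest in replicate 1 of every group.

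**Figure D4:**
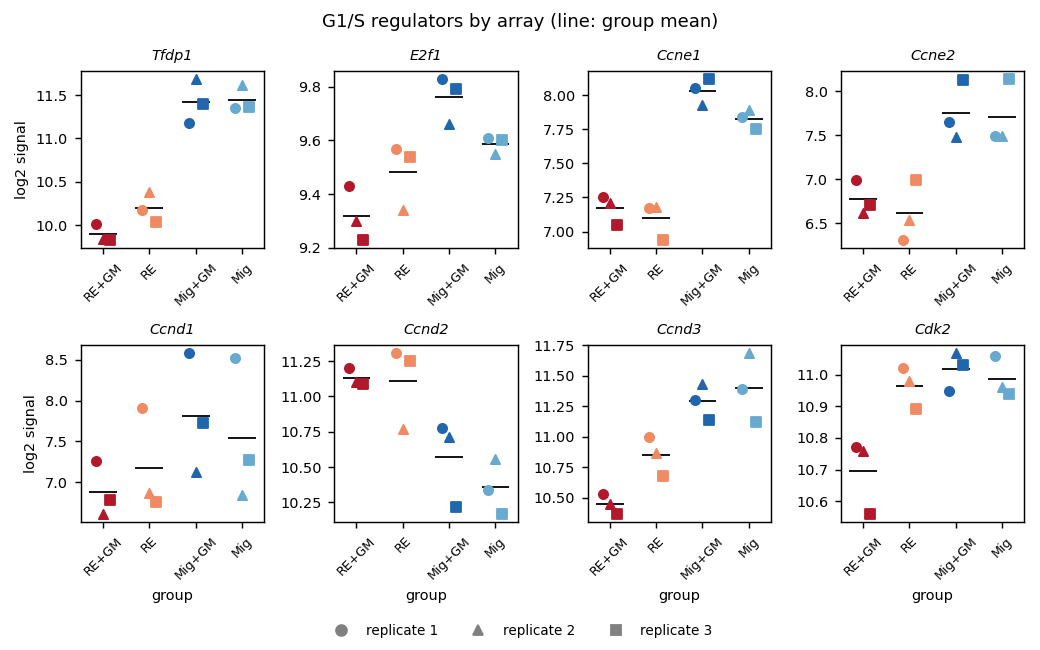
Log2 signal of the 8 tested G1/S regulators on each array (points, with symbols for replicate numbers) and the mean of each group (line). Tfdp1, Ccne1, Ccne2 and Ccnd3 lie lower in both RUNX1-ETO groups, Ccnd2 lies higher, and Ccnd1 follows replicate 1.

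No change of these genes with GM-CSF was detected in vector cells. In Mig+GM against Mig cells 0 of the 38 genes were called by limma, against 0.00826% of all units called higher and 0% called lower. Without a replicate block none had an unadjusted p under 0.05 (0 of 38), where 5.31% of all units did and 2.70% had one and were lower. With the replicate number as a block 0 of the 38 were called, where 0.0165% of all units were. The log2 differences ran from -0.22 (Lig1) to 0.26 (Ccnd1), with 24 of 38 negative (52.3% of all units) and a median of -0.06, against -0.01 over all units. E2f1 and Ccne1 were the 2 genes with all 3 Mig+GM arrays above all 3 Mig arrays, as 4.62% of all units had, and for 0 genes did all lie below, as for 5.15% of all units. In the main fit, which has no replicate block, the 95% intervals were narrow for genes such as Rpa1 (-0.29 to 0.06) and Mcm4 (-0.30 to 0.13). That of Ccnd1 was wide (-0.76 to 1.28). The median depended on the scaling: under median scaling 34 of 38 genes were negative, with a median of -0.23 against -0.08 over all units, and 0 were called.

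In RUNX1-ETO cells the differences with GM-CSF were mostly negative after quantile normalization but few passed the test. In RE+GM against RE cells 2 of 38 genes fell and 0 rose, against 0.363% of all units called lower and 1.89% called higher. That split of all calls, 44 lower and 229 higher, was 5 and 194 under median scaling and 138 and 279 in the authors' normalized values. Pold1, at 9.52 to 9.56 in RE+GM cells against 9.90 to 10.41 in RE cells, differed by -0.65 ± 0.14 (adjusted p = 0.0313). Mcm5, at 10.28 to 10.46 in RE+GM cells against 10.73 to 11.08 in RE cells, differed by -0.54 ± 0.12 (adjusted p = 0.0323). The 4 genes called with the replicate number as a block were these 2, Mcm10 (-0.51, adjusted p = 0.0469 with the block) and Pole (-0.46, adjusted p = 0.0463 with the block). With the block 2.44% of all units were called lower and 3.36% higher, 296 and 407 units. The calls for Pold1 and Mcm5 depended on single arrays: 0 genes were called without RE+GM replicate 1, RE+GM replicate 2, RE replicate 1 or RE replicate 2, 1 without RE+GM replicate 3, Mig+GM replicate 3 or Mig replicate 3, and 6 without RE replicate 3.

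Over the 38 genes the median in RE+GM against RE cells was -0.24 (-0.03 over all units), with 33 negative, where 57.6% of all units were. An unadjusted p under 0.05 was found for 17, each lower, where 10.5% of all units had one and were lower and 18.0% had one in either direction. All 3 RE+GM arrays lay below all 3 RE arrays for 19 genes, where 13.7% of all units did so, and above them for 0, where 9.08% did. Mcm2 had the largest difference, -0.71 ± 0.20, which was not called (adjusted p = 0.0983), followed by Pold1, Mcm5 and Mcm10. These values depended on the scaling, since under median scaling the median of the 38 was -0.03, 22 were negative and 0 were called, so no direction is given here for the set as a whole.

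**Figure D5:**
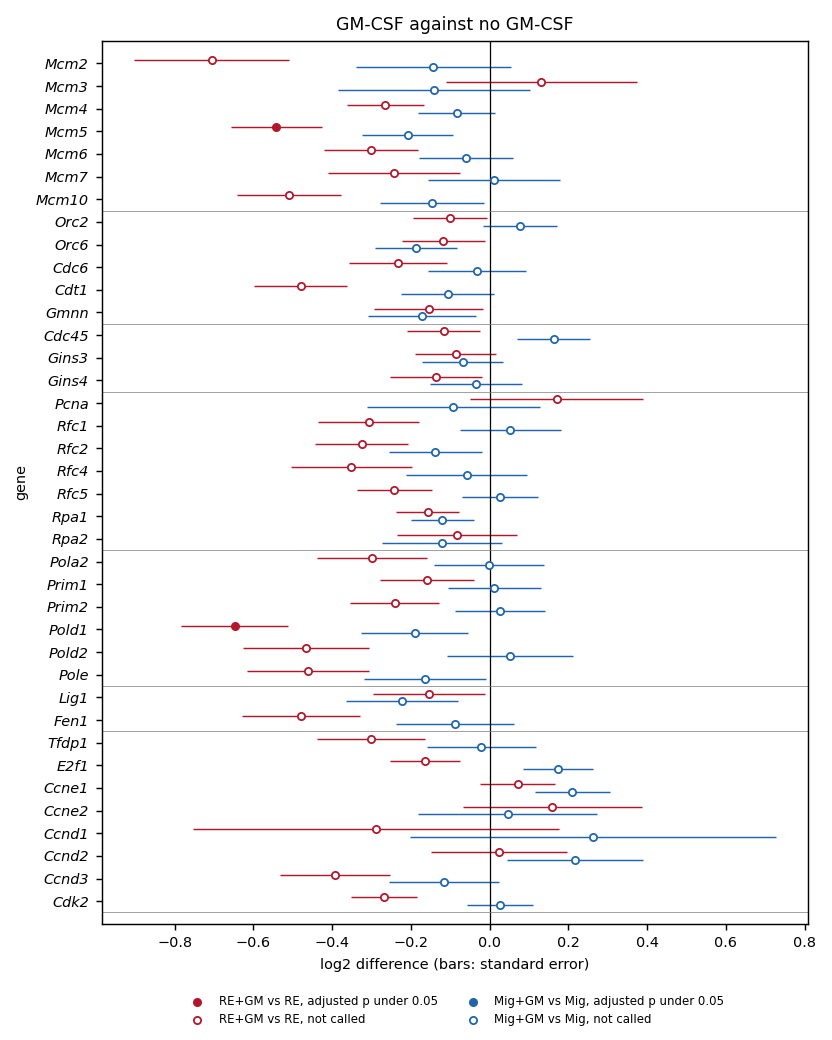
Log2 difference of each tested gene (rows) between cells with and without GM-CSF, in RUNX1-ETO cells (RE+GM minus RE, red) and in vector cells (Mig+GM minus Mig, blue); bars are standard errors and filled points passed an adjusted p of 0.05. Pold1 and Mcm5 in RUNX1-ETO cells are the 2 filled points, and all points lie between -0.71 and 0.26.

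The difference between the 2 effects of GM-CSF was tested as an interaction, RE+GM minus RE less Mig+GM minus Mig. Of the 38 genes 0 were called, against 0.264% of all units called higher and 0% called lower (6 lower and 34 higher units in the authors' normalized values, against 0 and 32), and 5 had an unadjusted p under 0.05 (Cdt1, Pold1, Pold2, E2f1 and Cdk2), each negative, where 4.72% of all units had one and were negative and 9.29% had one in either direction. The median was -0.26 (-0.03 over all units) with 31 of 38 negative (55.2% of all units). Median scaling shifted all units to a median of 0.14, and the set then had a median of 0.16, which is 0.02 above all units, where it had been 0.23 below them. A difference in the response of these genes to GM-CSF was therefore not detected. With 3 arrays a group and no replicate block in the main fit, the interval of this difference was wide, as for Mcm2 (-0.56, 95% interval -1.18 to 0.05).

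Most other genes of the same pathways were lower as well, those of the E2F, RB and G1/S list less so. The counts of these lists stand beside 23.3% of all units called lower and 18.8% called higher with GM-CSF. Without it the shares were 20.2% and 17.6%, and the median over all units was -0.04 each time. Of 36 tested further replication factors, 27 fell and 1 rose in RE+GM against Mig+GM cells (median -0.88), and 26 fell and 1 rose in RE against Mig cells (median -0.68). Clspn (-1.67), a fork checkpoint adaptor, Uhrf1 (-1.20), which carries DNA methylation through replication, and the helicase Pif1 (-1.03) had the smallest adjusted p with GM-CSF. Without it Tipin (-1.54) of the fork protection complex, Wdhd1 (-1.21) and Mms22l (-1.10) did. The exception in both was Pold4, the smallest polymerase delta subunit, which rose by 1.16 with GM-CSF (adjusted p = 3.32e-05) and by 1.09 without it (adjusted p = 7.89e-05), while Pold1 and Pold2 fell.

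Genes of deoxynucleotide supply moved in the same direction. Of 11 tested genes, 9 fell and 1 rose in each comparison, with medians of -1.23 with GM-CSF and -1.09 without it. Dtymk, thymidylate kinase, fell by 1.87 and by 1.61, and Dut, which removes dUTP, by 1.30 and by 1.13, in the same order. Samhd1, an enzyme that breaks deoxynucleotides down, was 3.49-fold higher with GM-CSF (adjusted p = 4.21e-06) and 3.86-fold higher without it (adjusted p = 3.66e-06).

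Of 24 further E2F, RB and G1/S genes, 13 fell and 2 rose with GM-CSF (median -0.50), where 23.3% of all units were called lower. Without it 11 fell and 1 rose (median -0.29), where 20.2% of all units were called lower. Mybl2, a transcription factor of cycling cells, fell by 1.76 and by 1.26, E2f2 by 1.66 each time, Cdca7 by 1.84 with GM-CSF and Lin54 by 0.83 without it, while E2f3 rose by 0.65 and by 0.39. Genes of mitosis were lower as well, with 27 of 33 called lower with GM-CSF (median -0.89) and 25 of 33 without it (median -0.68). The smallest adjusted p-values, not the largest differences, were those of Birc5 (-1.29 and -1.28), Kif11 (-1.08 and -1.20), Prc1 (-0.90 with GM-CSF) and Spc25 (-1.19 without it). The mitotic list shares Top2a with that of further replication factors. In either GM-CSF comparison limma called 0 genes of these 4 lists, while in RE+GM against RE cells 13 of 36 further replication factors, 6 of 24 E2F, RB and G1/S genes, 1 of 11 genes of deoxynucleotide supply and 13 of 33 mitotic genes had an unadjusted p under 0.05, where 18.0% of all units did.

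Markers of cell kinds differed with the fusion too, in more than 1 direction. Of all units, 23.3% were called lower and 18.8% higher with GM-CSF, and 20.2% and 17.6% without it. Several of the short lists below, such as the progenitor list without GM-CSF, had call counts near or below these shares. The labelled c-Kit gate could not be examined, since no probe was named Kit or Ly6a and Flt3 was not above background. Of the other 9 progenitor genes, 2 rose and 3 fell in RE+GM against Mig+GM cells, and 1 rose and 1 fell in RE against Mig cells. Cd34 rose in both, 2.74-fold with GM-CSF and 3.89-fold without it, while Spi1, a transcription factor of myeloid cells, fell by 0.47 and by 0.43 on the log2 scale. Erg rose and Lmo2 (-0.39) and Mpo (-1.73) fell with GM-CSF.

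Among 8 tested erythroid genes 4 fell and 1 rose in each comparison, but only Ermap, Klf1 and Tfrc fell in both and 0 rose in both. Their summed signal was 1064 to 1977 on RE+GM arrays against 6716 to 9843 on Mig+GM arrays, and 1430 to 2522 on RE arrays against 10171 to 11439 on Mig arrays. Such a sum, here and below, is of normalized signals on a linear scale, each less the offset of 50, so bright genes weigh most. Most of that sum on vector arrays was Tfrc, the transferrin receptor, at 656 to 754 on RE+GM arrays against 5768 to 7807 on Mig+GM arrays, and 683 to 1158 on RE arrays against 6640 to 7911 on Mig arrays. Without Tfrc the sums were 408 to 1223 on RE+GM arrays against 947 to 2928 on Mig+GM arrays, which overlap, and 634 to 1364 on RE arrays against 3253 to 4138 on Mig arrays. Gata1 was not called in either comparison.

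Of 9 tested neutrophil genes 3 fell with GM-CSF (Mpo, Elane and Prtn3) and 1 without it (Elane). Their summed signal was 4965 to 13582 on RE+GM arrays against 20919 to 77538 on Mig+GM arrays, and 5814 to 18543 on RE arrays against 17317 to 59097 on Mig arrays, which overlap. Of 6 tested monocyte and macrophage genes 1 rose and 1 fell with GM-CSF, and 3 rose and 1 fell without it. Their summed signal was 9219 to 13783 on RE+GM arrays against 2564 to 8259 on Mig+GM arrays, and 13392 to 16334 on RE arrays against 1695 to 9987 on Mig arrays. The neutrophil sum was thus lower with the fusion in the presence of GM-CSF and overlapped without it. The monocyte sum was higher with the fusion both with and without GM-CSF.

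Of 9 tested mast cell and basophil genes the same 4 rose (Cpa3, Mcpt4, Tpsab1 and Tpsb2) and the same 2 fell (Mcpt8 and Prss34) in both comparisons. Of 7 megakaryocyte genes 2 rose (Pf4 and Ppbp) and 3 fell with GM-CSF, and 0 rose and 3 fell without it. Of 6 lymphoid genes 2 rose (Cd79b and Il7r) and 1 fell (Nkg7) in both. Among 6 stroma and endothelium genes 4 rose with GM-CSF and 3 without it, and their summed signal was 3588 to 5274 on RE+GM arrays against 705 to 924 on Mig+GM arrays, and 990 to 2884 on RE arrays against 652 to 818 on Mig arrays. Of that last list Col1a1, Col3a1 and Pdgfra were not above background on any array, while Col1a2 was on 12 arrays and Pdgfrb on 10. The part of these marker differences in the differences of the replication genes was not tested.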

How the data were processed

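Per the labels' protocols, total RNA of 12 samples was purified on columns and labelled with biotin for Illumina Mouse Ref-8 v2.0 BeadChips, whose number limits the precision. The authors deposited signal intensity on a linear scale before normalization, without detection p-values, and a second table of normalized intensity; the software and the normalization method are not given in the sources used here. The first table was used for all main values. Signals were corrected with normexp (offset 50, which makes folds of dim probes smaller), quantile-normalized between arrays and log2-transformed, using limma 3.58.1 under R 4.3.3. Because detection p-values were not used here, background was estimated from the lower flank of the signals of each array, and 16377 of 25697 probes above its 95th percentile on at least 3 arrays were kept. Gene symbols came from the platform annotation, where 23962 probe annotations matched a RefSeq gene. The brightest kept probe stood for a gene, giving 11130 genes and 978 unnamed probes. A group-means model over 12 arrays (lmFit, eBayes, two-sided) gave 5 contrasts, each adjusted by Benjamini-Hochberg over 12108 units. The fit was also run on simulated arrays, which had planted differences with the fusion only and no pairing by replicate number. That run could not test the recovery of GM-CSF differences or the effect of pairing.

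The genes, lists and tests were chosen with earlier results of these data known. Array values are given for Mcm2 to Mcm7, Cdc6, Cdt1, Pcna, E2f1, Tfdp1, the D and E cyclins, the 6 genes with the smallest adjusted p in a contrast and any called against the majority; Fen1 was added after its values were seen. In other lists the 3 genes with the smallest adjusted p are named; Pold4 and E2f3 were named after their values were seen, as exceptions in direction. Samples were grouped by title and description. Same-numbered arrays correlated, after removal of group means, by 0.16 to 0.33 (RE+GM and RE), 0.22 to 0.43 (RE+GM and Mig+GM), 0.12 to 0.47 (RE and Mig) and 0.61 to 0.69 (Mig+GM and Mig). For RE+GM and Mig they did so by 0.13 to 0.34, and for RE and Mig+GM by 0.09 to 0.50. The numbers were taken to pair arrays, though weakly outside the vector groups. The fit with the replicate number as a block is given where it changes a call. The array data carry no genome coordinates used here.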

Additional observations from a re-analysis of the deposited data

How the results depend on the processing

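Alternatives were median scaling, the authors' normalized values, no background correction, an offset of 16, no filter or a filter of 6 arrays, every probe as a unit, the replicate number as a fixed or random block, only the groups compared, a minimum fold of 1.5 and leaving out each array; leaving out Mig replicate 1 and RE replicate 1 together was added after seeing the data. No called gene changed direction, but genes that were not called did. Under median scaling 22 of 38 were negative in RE+GM against RE (33 in the main fit). In the interaction 5 of 38 were (31 in the main fit), and in Mig+GM against Mig 34 of 38 (24 in the main fit). Of the calls, 31 of 36 in RE+GM against Mig+GM and 29 of 34 in RE against Mig held under all of these; the counts of called genes were 31 to 38 and 30 to 35, and 35 to 37 and 33 to 34 without 1 array. In Mig+GM against Mig 0 genes were called throughout.

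In RE+GM against RE, 2 genes were called, but 0 under median scaling, with only the groups compared or without Mig replicate 1 and RE replicate 1 together, 1 with an offset of 16 or a minimum fold of 1.5, 4 with the authors' normalization, the replicate block or the random block, and 0 to 6 without 1 array. The interaction had 0 called genes and 1 with the authors' normalization (Mcm5, -0.60, adjusted p = 0.0475). The replicate block changed no other call among the 38 genes than those of Pcna, Ccnd1, Mcm10 and Pole. The cause of these shifts was not tested.

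Over all units, RE+GM against RE gave 273 calls and 703 with the block, 481 with the random block, 417 with the authors' normalization, 104 with only the groups compared and 99 to 906 without 1 array. The interaction gave 32 and 74 with the block, 62 with the random block, 12 under median scaling, 18 with the offset of 16, 17 with the filter of 6 arrays and 8 to 190 without 1 array. A minimum fold of 1.5 left 3384 of 5099 calls in RE+GM against Mig+GM and 2857 of 4568 in RE against Mig, and Mig+GM against Mig gave 1 call and 0 to 2 otherwise. Dim probes near background give only small folds.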
